A study of Mus musculus with 11 samples.

Results

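The smooth muscle contractile genes described here are Acta2, Tagln, Myh11, Cnn1, Mylk, Des, Myocd, Lmod1 and Tpm2. They were taken by symbol, all 9 were found among the 23507 gene rows of the count matrix, and their levels were followed in smooth muscle cells, pericytes, adipose stem cells (ASC) and endothelial cells (EC). The cells came from the stromal vascular fraction, the cells other than fat cells, of perigonadal white adipose tissue (pgWAT) of adult male and female mice. All mice carried the Pdgfrb-eGFP transgene, a reporter in which a Pdgfrb promoter drives green fluorescent protein, on the C57BL6/J background, and no animal was treated. A total of 3261 cells was read by Smart-seq2, which covers whole transcripts and counts reads rather than molecules, on 11 plates of 7 mouse ids. The 3 male ids were mice 1, 4 and 8, and the 4 female ids were mice 2, 3, 5 and 6/7, of which the last stands for a pair of animals that share plates. Cells were sorted as negative for CD45, a leukocyte protein, and then by GFP, by CD31, an endothelial surface protein, or by both. On plates 709 and 875 of mouse 2 they were also sorted by DPP4, a surface protein of part of the ASC. Since each plate held a chosen gate, the share of a class among sorted cells is not its share in the tissue, and a class missing from a mouse may have been missed by the gate.

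Smooth muscle contracts when myosin filaments pull on actin filaments. Calcium entering the cell activates myosin light chain kinase, which phosphorylates the regulatory light chain and lets the myosin heads cycle. Arteries and arterioles are wrapped by vascular smooth muscle cells (VSMC) that hold this machinery in quantity, and capillaries by pericytes that hold less of it. Both are called mural cells, and both express Pdgfrb. Many genes of the machinery are switched on by serum response factor together with its partner myocardin, encoded by Myocd, and the DNA element that serum response factor binds is the CArG box.

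The 9 genes fall into 4 roles. Acta2 (smooth muscle alpha-actin) is the actin of the thin filament, and Tpm2 (beta-tropomyosin), Tagln (transgelin, SM22), Cnn1 (calponin) and Lmod1 (leiomodin, a nucleator of actin filaments) bind it. Myh11, the smooth muscle myosin heavy chain, is the motor, and Mylk encodes the light chain kinase. Des (desmin) forms the intermediate filaments of muscle. Myocd is the only transcriptional regulator of the set. In the mm10 build, Acta2 lies at chr19:34241090-34255590 on the minus strand, Tpm2 at chr4:43514711-43523765 on the minus strand and Myh11 at chr16:14194535-14291372 on the minus strand. Tagln lies at chr9:45929619-45936058 on the minus strand, where it overlaps Pcsk7 and the antisense gene Gm48529, and because the counting is not stated to have used the strand, reads of these overlapping genes cannot be told apart. Cnn1 (chr9:22099216-22109630), Mylk (chr16:34745210-35002420), Des (chr1:75360329-75368579) and Lmod1 (chr1:135324807-135368065) lie on the plus strand, and Myocd (chr11:65176561-65269989) on the minus strand.

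The CArG box is written as CC, then 6 bases that are A or T, then GG. RefSeq promoter sequence on GRCm38.p6 was at hand for 6 of the 9 genes (Acta2, Cnn1, Des, Lmod1, Mylk and Tpm2). In the 250 bases before the start, 0 of these 6 promoters held the strict box, which 482 of 32851 promoters (1.47%) held, and only that of Acta2 held one with at least 5 of the 6 inner bases A or T, which 2823 promoters (8.59%) held. The element is its own reverse complement, so both strands were searched at once. Both Acta2 matches are shown because this gene had the highest level of the set, with the match in capitals, 5′ to 3′ on the minus strand. The first capital lies 84 bases before the start in the upper window, chr19:34255438-34255467, and 34 bases before it in the lower one, chr19:34255388-34255417, and both lie in a stretch that GENCODE vM21 annotates as UTR of a longer Acta2 transcript. A match is a description of letters and not a measured site.
Acta2 upper window: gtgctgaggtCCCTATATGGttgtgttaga
Acta2 lower window: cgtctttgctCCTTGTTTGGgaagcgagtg

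Cell classes were rebuilt from clusters made without the 9 genes and without 36 other contractile genes, and carry "-like" in their names because they rest on markers. Reads of all genes per cell ran from 141935 to 3526227 with a median of 616939, and the class medians were close, at 611770 in VSMC-like, 646232 in pericyte-like, 669509 in ASC-like and 517726 in blood EC-like cells. There were 41 VSMC-like, 58 pericyte-like, 2252 ASC-like and 563 blood EC-like cells, and 188 cells stayed unnamed. No cell name occurred on more than 1 plate and no 2 cells had the same profile. The defining markers followed the names. Rgs5 and Kcnj8, a signalling regulator and a potassium channel subunit of pericytes, stood at a CPM (reads of the gene scaled to a common total of gene reads) of 1119 and 605 in pericyte-like cells against 18.6 and 1.86 in VSMC-like cells, while Pln and Rergl, smooth muscle markers outside the set, stood at 81.5 and 82.4 CPM in VSMC-like against 0.475 and 0.181 in pericyte-like cells. Notch3, a receptor of all mural cells, was read in both at 605 and 412 CPM.

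Mural-like cells were unevenly spread over animals, and this limits what follows. Of the 41 VSMC-like cells 37 came from plate 172, which held GFP-positive cells of mouse 1, 1 from plate 171 of the same mouse, 1 from mouse 4 and 2 from mouse 8. No female mouse gave a VSMC-like cell. Of the 58 pericyte-like cells 42 came from mouse 1 and 13 from mouse 2, and 40 of the 58 had at least 10 reads of at least 3 of 6 endothelial markers, against 0 of 41 VSMC-like cells. Pecam1 stood at 385 CPM in these 40 cells and at 7.25 CPM in the other pericyte-like cells.

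Plate 172 stood apart in low read numbers of these genes. Among its 307 cells outside the VSMC-like class, 92.5% had at least 1 read of Acta2, against 16.9% to 58.9% on the other 10 plates, 76.5% had one of Myh11 against 1.06% to 37.7%, and 36.8% had one of Myocd against 0.264% to 4.52%. Most of these cells had 1 to 9 reads, as 61.9% of the 307 did for Myh11 and 35.8% for Myocd. Lmod1 and Des did not set the plate apart, since plate 131 of mouse 4 had higher shares of both (34.4% and 97.8% against 30.6% and 77.2%). Tests were therefore also run without mouse 1, pericyte-like values are given by plate, and the part of these low reads in the results was not tested. For the same reason a gene is counted as read in a cell below only from 10 reads on, unless another limit is named.

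In VSMC-like cells all 9 genes were at their highest of the named classes, and the set spanned a wide range. Scaled per kilobase of exon, so that genes can be compared, Acta2 stood at 4994 RPKM, Tpm2 at 678 and Tagln at 648. Des, Myh11 and Mylk followed at 252, 241 and 105 RPKM, and Myocd, Cnn1 and Lmod1 at 88.3, 85.5 and 48.8 RPKM. Actin and its tropomyosin thus led, the motor and its kinase were in the middle and the regulator Myocd was among the lowest. These are pooled sums over 41 cells that come mostly from mouse 1, so they carry no error across animals.

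**Figure D1:**
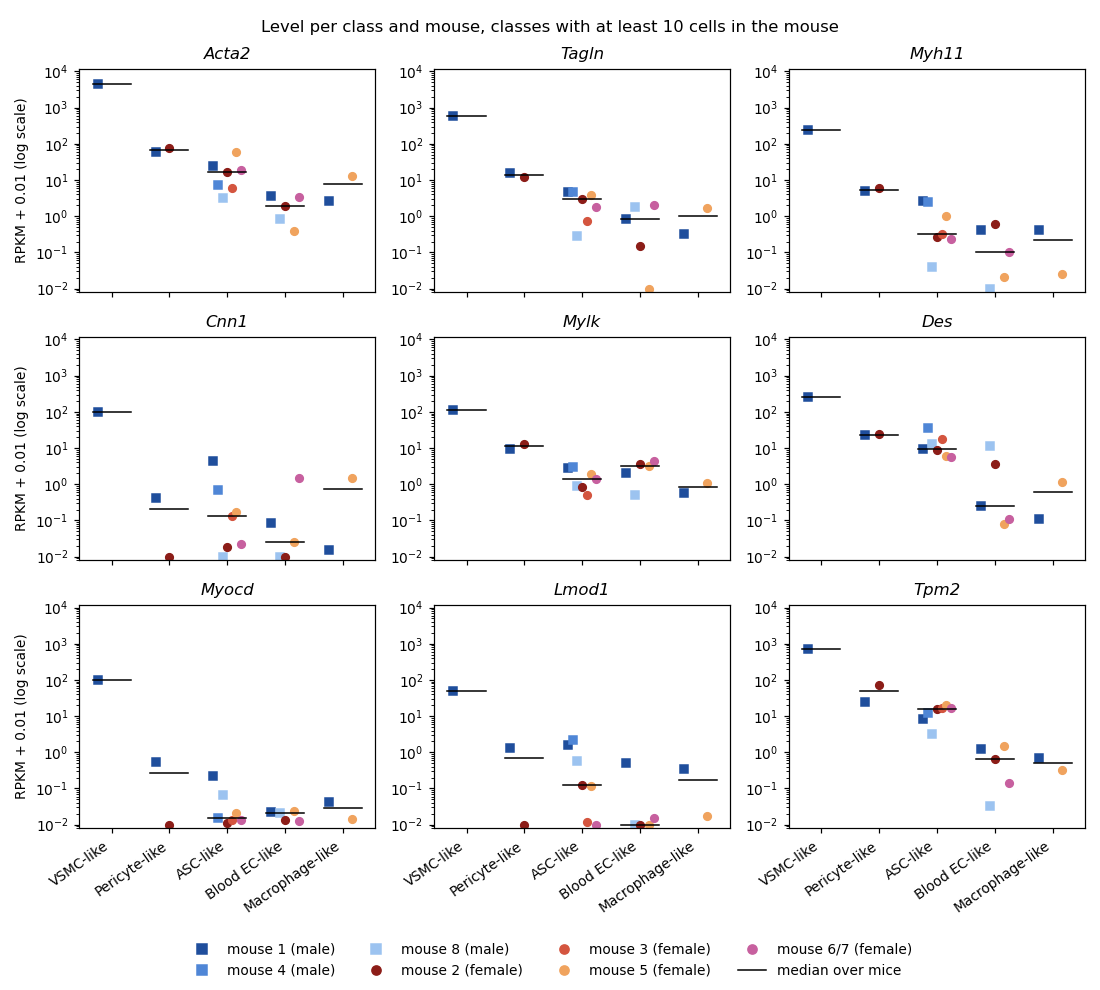
Level of each of the 9 genes (RPKM + 0.01, log axis) in each class, 1 point per mouse with at least 10 cells of the class, the line marking the median over mice. VSMC-like cells had a point from mouse 1 alone and pericyte-like cells from mice 1 and 2, and in every panel the VSMC-like point lies highest.

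Of the 9 genes, 6 were read in every VSMC-like cell and Lmod1 in all but 1, while 2 were read in part of the cells. Acta2 ran from 1963 through a median of 9518 to 23898 CPM over the 41 cells. Myh11 ran from 363 through 1716 to 4220 CPM. Tpm2 ran from 369 through 1867 to 3472 CPM. Together with Tagln (143, 1097 and 3928 CPM as lowest, median and highest), Mylk (141, 1205 and 2628 CPM) and Des (187, 849 and 2410 CPM) these genes had at least 10 reads in 41 of 41 cells (exact 95% interval 91.4% to 100%). Lmod1 was read in 40 of 41 cells and ran from 13.3 through 195 to 597 CPM.

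Cnn1 and Myocd were read in part of the VSMC-like cells. Cnn1 was read in 28 of 41 cells, 68.3% (exact interval 51.9% to 81.9%), and ran from 0 through 80.5 to 890 CPM. Myocd was read in 31 of 41 cells, 75.6% (59.7% to 87.6%), and ran from 0 through 566 to 1877 CPM. Intervals of shares cover counting error only, since the cells share animals and plates. Myocd left a gap, with 11 cells at or below 39.5 CPM and 30 cells at or above 188 CPM. When the cells were parted at this gap, a split made after its values were seen, the medians of Acta2 (9761 CPM in the low and 9379 in the high cells), Des (849 and 850) and Tpm2 (1964 and 1854) were close, while Mylk stood at 765 against 1278 CPM and Cnn1 at 199 against 73.0 CPM. The 11 low cells came from mice 1, 4 and 8.

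The 4 VSMC-like cells from outside plate 172 lacked Cnn1, and 1 of them also lacked Myocd, while each had at least 10 reads of the other 7 genes. Acta2 stood at 6791 CPM in the cell of plate 171, at 18894 in that of mouse 4 and at 10941 and 23898 in those of mouse 8. Cnn1 had 0 reads in all 4 cells, and Myocd stood at 307, 39.5, 392 and 0 CPM in the same order. The last of these cells also had the lowest Mylk of all VSMC-like cells, 141 CPM, and Myh11 at 407 CPM, beside the highest Acta2. Hence each Cnn1 read in VSMC-like cells came from plate 172.

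From cell to cell the genes moved together only loosely. Over the 41 VSMC-like cells the 36 pairs of genes had a median Pearson correlation of 0.29 in log2(CPM + 1), 32 of the pairs were positive, and the range was from -0.19 (Tagln with Myocd) to 0.61 (Acta2 with Tagln). The other pairs above 0.5 were Acta2 with Tpm2 at 0.59 and Myh11 with Mylk at 0.57. The cells share a plate and a mouse for the most part and CPM within a cell share a total, so these values are descriptions.

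Pericyte-like cells had a part of the set at lower levels. Pooled over the 58 cells, Acta2 stood at 99.3 RPKM, Tpm2 at 44.4, Des at 28.4 and Tagln at 16.7, with Mylk at 11.3 and Myh11 at 7.79. Myocd at 1.39, Lmod1 at 0.917 and Cnn1 at 0.24 RPKM were close to nothing. Acta2 and Tpm2 were each read in 75.9% of these cells, Mylk in 65.5%, Des in 62.1%, Myh11 in 41.4% and Tagln in 37.9%. Lmod1 was read in 8.62% and Myocd in 5.17%, and Cnn1 in 0 of 58 cells, which allows a share of up to 5.17%. The share of Acta2 rested on plate 172, where 37 of 37 cells reached 10 reads, against 7 of the 21 pericyte-like cells of other plates (33.3%, exact interval 14.6% to 57%). Outside plate 172 Tpm2 and Mylk were each read in 17 of the 21 cells (81.0%), Des in 14 (66.7%), Tagln in 10 (47.6%) and Myh11 in 9 (42.9%).

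Mouse 1 was the only animal with at least 5 cells of both mural classes, so VSMC-like and pericyte-like cells were compared within it, without a test. Fold changes past 2.6 towards VSMC-like cells were found for 125 of 1331 genes (9.39%) with enough reads, and for each of the 6 members among these. The log2 differences were 6.14 for Acta2, 5.50 for Myh11, 5.18 for Tagln, 4.81 for Tpm2, 3.55 for Mylk and 3.47 for Des. Of these 6 genes Mylk and Des differed least. Myocd, Cnn1 and Lmod1 fell short of the read minimum in 1 of the sums, and stood at 714, 303 and 221 CPM on the TMM scale in VSMC-like cells against 3.02, 0.97 and 4.70 in pericyte-like cells. Leaving out cells with endothelial markers left 3 members among 365 genes with enough reads. All 3 stood higher in VSMC-like cells, and the median log2 difference over the 365 genes was 0.03.

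Pericyte-like cells of single plates differed in which genes they held. The 13 cells of plate 874, which held CD31-positive GFP-negative cells of female mouse 2 and no VSMC-like cell, all carried endothelial markers. In their sum Tpm2 stood at 212 CPM, Acta2 at 167, Mylk at 146, Des at 89.7, Myh11 at 44.6 and Tagln at 24.8 CPM. Cnn1, Myocd and Lmod1 had 0 reads there, which 3 reads put below 0.183 CPM. These cells therefore held actin, tropomyosin, kinase, desmin and myosin reads on a plate without VSMC-like cells.

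On plate 172 the 37 pericyte-like cells had Acta2 at 172 CPM, Des at 91.9, Mylk at 83.4, Tpm2 at 48.8, Myh11 at 43.4 and Tagln at 32.0 CPM. The sums of Acta2, Des and Myh11 were near those of plate 874, while Tpm2 was lower. Cell by cell, however, Acta2 was read in 38.5% of the cells of plate 874, with a median of 0.667 CPM, and in all cells of plate 172, with a median of 91.6 CPM. In contrast to plate 874, 30 of the 37 cells had at least 1 read of Myocd and 18 had one of Cnn1, yet 1 cell and 0 cells reached 10 reads. The 5 cells of plate 171, sorted as CD31-positive, held 0.863 CPM of Acta2 beside 174 CPM of Mylk and 144 CPM of Tpm2. Acta2 was thus nearly missing from the pericyte-like cells of 1 plate where Mylk was as high as on the others.

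A pair of pericyte-like cells of female mouse 5 stood between the classes. Neither carried the endothelial markers, and they had Acta2 at 4601 and 1624 CPM, Myh11 at 848 and 751 CPM and Myocd at 187 and 366 CPM. Rgs5 stood at 1253 and 790 CPM in the same cells and Notch3 at 2071 and 896 CPM, while Cnn1 had 0 reads in both. They were the only pericyte-like cells besides 1 of plate 172 with at least 10 reads of Myocd. They held Rgs5 and Kcnj8 (257 and 246 CPM) together with Myh11 within the range of VSMC-like cells, 363 to 4220 CPM. The range of Myocd in VSMC-like cells begins at 0 CPM, so a place within it could not tell these cells apart.

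**Figure D2:**
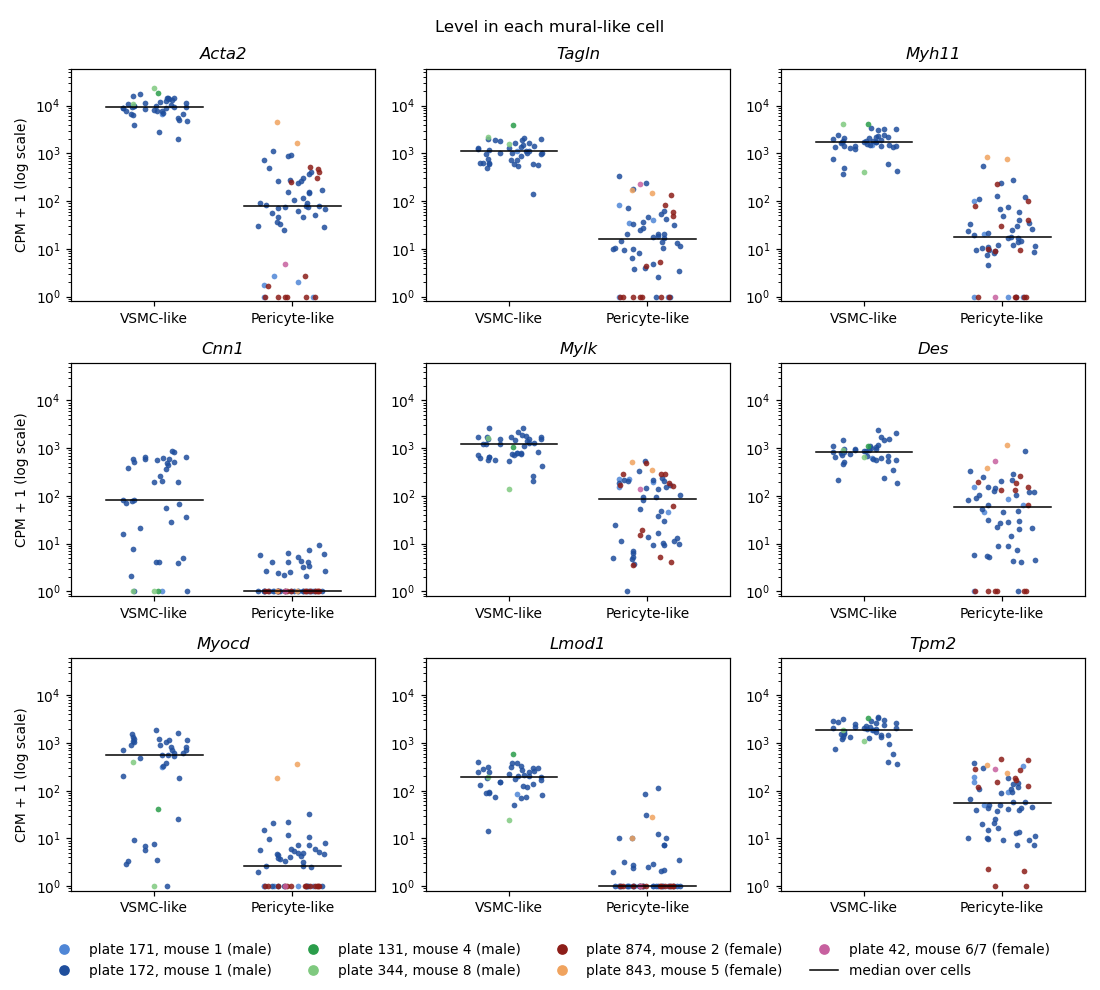
Level of each of the 9 genes (CPM + 1, log axis) in each of the 41 VSMC-like and 58 pericyte-like cells, coloured by plate, the line marking the median over cells. In Acta2 only 1 pericyte-like cell, from mouse 5 at 4601 CPM, reaches the range of VSMC-like cells, and Cnn1 and Myocd part the VSMC-like cells into cells with and without reads.

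Co-detection followed the same lines. Each VSMC-like cell had at least 7 of the 9 genes at 10 or more reads, and 20 of the 41 had all 9. Pericyte-like cells had a median of 4 (range 0 to 8), and 18 of 58 (31.0%) had at least 5. Of the 80 cells of the series with at least 5 of the genes, 41 were VSMC-like, 18 pericyte-like, 19 ASC-like, 1 blood EC-like and 1 macrophage-like. ASC-like cells had a median of 1 gene, with 1011 of 2252 (44.9%) at 0, and blood EC-like cells a median of 0, with 78.3% at 0.

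**Figure D3:**
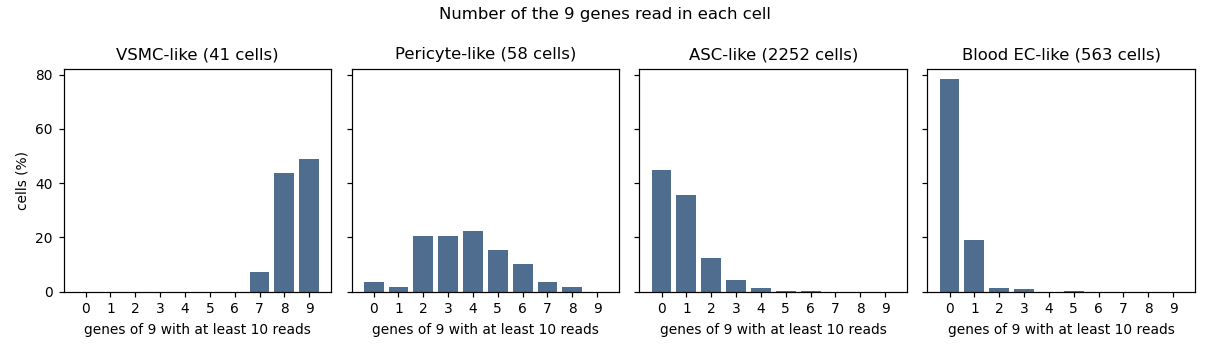
Share of cells (%) by the number of the 9 genes with at least 10 reads, from 0 to 9, in the classes, with the number of cells above each panel. VSMC-like cells lie at 7 to 9, pericyte-like cells spread from 0 to 8, and ASC-like and blood EC-like cells lie mostly at 0 and 1.

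Single genes differed in how far they marked the VSMC-like class. Myocd had at least 10 reads in 37 cells of the series, of which 31 were VSMC-like, 3 pericyte-like and 3 ASC-like. Cnn1 had them in 40 cells, of which 28 were VSMC-like, 8 ASC-like, 2 blood EC-like and 2 macrophage-like. In contrast, of 148 cells with Myh11 41 were VSMC-like, 24 pericyte-like and 73 ASC-like, and of 336 cells with Acta2 219 were ASC-like. Read presence of Myh11 or Acta2 alone thus picked more ASC-like than VSMC-like cells in these plates, where ASC-like cells were also far more numerous.

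The pericyte markers were nearly absent from VSMC-like cells, where Rgs5 was read in 8 of 41 and Kcnj8 in 1 of 41 cells. Among pericyte-like cells, the 24 with Myh11 also had Rgs5 in 24 cells, and the 34 without Myh11 had Rgs5 in 32. Myocd was read in 3 of the 24 and in 0 of the 34. Pecam1 was read in 16 of the 24 and 22 of the 34 cells, near the same share. Among ASC-like cells, Acta2 was read in 27 of the 73 cells with Myh11 (37.0%) and in 8.81% of the rest, Mylk in 52.1% and 12.4%, and Lmod1 in 27.4% and 1.84%. Pdgfra, which marks ASC, was read in 87.7% of the 73 cells and Notch3 in 21.9%, against 5.19% of the rest. These shares pool plates that differed in how often the genes were read. Myh11 was read in 11.5% of the ASC-like cells of plate 172 and 0.792% of those of plate 709, and Lmod1 in 10.3% and 0%. Co-detection within a cell and differences between plates therefore cannot be told apart here.

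Mural-like and ASC-like cells were compared over sums of reads per mouse, paired by mouse, in mice 1 and 2, the only ids with at least 10 mural-like cells. With 2 mice edgeR's quasi-likelihood test called 0 of 9703 genes (0%) at an adjusted p below 0.05 and a fold change above 2.6, while 1364 genes had an unadjusted p below 0.05, and it called 0 of the 8 members tested, 6 of which had an unadjusted p below 0.05. All 8 log2 differences were towards mural-like cells, from 1.34 ± 2.75 (SE) for Lmod1 to 4.98 ± 0.61 for Myh11, whose adjusted p was 0.098. Mylk was higher by 4.17 ± 0.52 (adjusted p = 0.1) and Acta2 by 4.31 ± 1.55 (adjusted p = 0.353). The likelihood ratio test of edgeR called 1024 of the 9703 genes and 5 members on the same sums. DESeq2 called 1386 genes and 6 members, so the call rested on how the spread between 2 mice was weighed. That spread includes a difference in make-up. The mural-like sum of mouse 1 held 38 VSMC-like and 42 pericyte-like cells, and that of mouse 2 held 13 pericyte-like cells alone. In mouse 2 the mural-like and ASC-like cells also lay on different plates. With pericyte-like cells alone as mural cells, 0 of 9641 genes and so 0 of 6 members were called, while 1582 genes had an unadjusted p below 0.05.

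In ASC-like cells 3 of the genes were read in a sizeable part of cells and the others in few. Des was read in 26.5% of the 2252 cells, Tpm2 in 26.0% and Mylk in 13.7%. Acta2 was read in 9.72%, Myh11 in 3.24%, Tagln in 2.98%, Lmod1 in 2.66%, Cnn1 in 0.355% and Myocd in 0.133%. In macrophage-like cells, taken for comparison and with a median of 661413 reads, the shares were 1.46% for Des, 2.19% for Tpm2, 11.7% for Mylk, 3.65% for Acta2, 2.19% for Tagln and 1.46% for Cnn1. Des and Tpm2 in ASC-like cells thus stood far above the macrophage-like shares, Acta2 above them by less, and the pooled shares of Mylk, Tagln and Cnn1 were near them. Whether the macrophage-like reads are background or expression of their own was not tested, so a share near theirs does not show that ASC-like cells lack the gene. With every cell thinned to 100000 reads, a read of Acta2 was found in 19.9% of ASC-like and 21.2% of macrophage-like cells, but these pools come from different plates. On plate 843 of mouse 5, the only plate with many cells of both classes (104 ASC-like and 61 macrophage-like), Acta2 was read in 41.3% of ASC-like and 1.64% of macrophage-like cells, and after thinning a read was found in 62.5% and 23.0%. Tagln was read there in 11.5% and 3.28%, and Mylk in 18.3% and 18%. Among the ASC-like cells of other plates the thinned share of Acta2 was as low as 5.01%, on plate 709, where no macrophage-like cell was at hand for comparison.

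The level of some genes in ASC-like cells lay in very few cells. A single cell of mouse 2 on plate 875 held 26.8% of all Acta2 reads of the class, at 8885 CPM, and 6 cells held 50% of them. The same share lay in 1 cell for Cnn1, 2 for Myocd, 4 for Tagln, 8 for Myh11 and 11 for Lmod1. The reads of Mylk, Tpm2 and Des were spread wider, with 50% of them in 52, 90 and 95 cells. Class averages of the first group of genes therefore describe single cells more than the class.

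**Figure D4:**
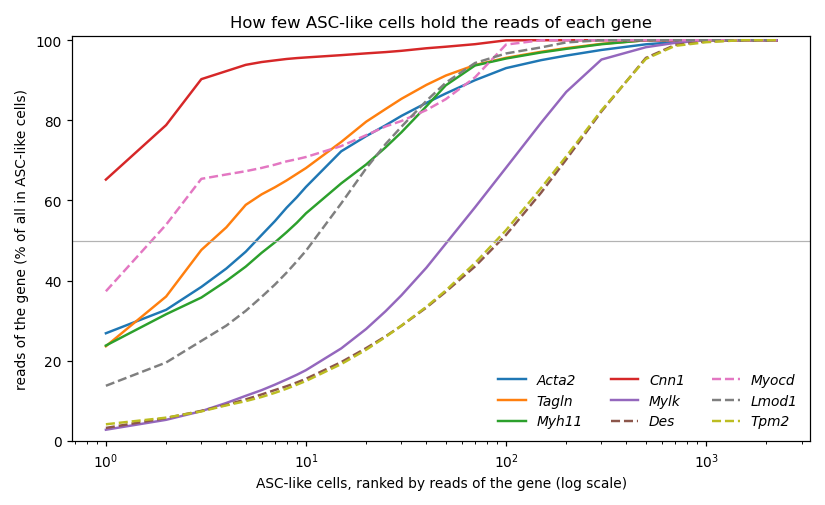
Cumulative share of each gene's reads (%, y axis) over the 2252 ASC-like cells ranked by their reads of the gene (x axis, log scale), with a grey line at 50%. The curves of Cnn1, Myocd, Tagln, Acta2 and Myh11 pass the line within the first 8 cells, and those of Mylk, Tpm2 and Des after 52 to 95 cells.

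The ASC-like cells rich in these genes were concentrated in some clusters and differed in their other markers. Acta2 exceeded 100 CPM in 73 ASC-like cells (3.24%), which had Pdgfra at 244 CPM against 300 CPM in the other ASC-like cells, Dcn at 11719 against 10231 CPM and Notch3 at 48.1 against 6.41 CPM. Of these 73 cells 40 lay in a cluster of 336 ASC-like cells (11.9%) and 12 in a cluster of 148 (8.11%). In the other ASC-like clusters the share was 0.318% to 2.38%. Each of the former clusters also held 9 of the 19 ASC-like cells with at least 5 of the genes. Mouse 5 had the highest share of cells above 100 CPM, 12.5% of its 104 ASC-like cells, and mouse 4 the lowest, 0.551% of 363. The top cell of mouse 2 had 27719 CPM of Dcn, a collagen-binding proteoglycan of fibroblasts, with 0 reads of Notch3, Rgs5 and Kcnj8. An ASC-like cell of mouse 4 instead joined 9531 CPM of Acta2 and 10734 CPM of Myh11, a Myh11 level above that of any VSMC-like cell, to 353 CPM of Notch3, 721 CPM of Rgs5 and 5302 CPM of Dcn. Cells with at least 10 reads of 2 or more of 18 mural markers numbered 81 (3.60%) and held 48.3% of the class's Acta2 reads, 62.6% of Tagln, 49.6% of Myh11 and 93.2% of Cnn1, but 12.4% of Tpm2, 12% of Mylk and 5.07% of Des. Of these 81 cells 30 were ASC1a-like, 39 ASC1b-like and 12 ASC2-like, and their part in the results below was examined by leaving them out, a choice made after seeing the data.

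The ASC subtypes, 821 ASC1a-like, 668 ASC1b-like and 763 ASC2-like cells, were cut from marker scores within each mouse and are ranges of a score, with 426 cells (18.9%) near a boundary. ASC2-like cells, marked by Dpp4, had the lowest levels of several of the 9 genes. Acta2 stood in ASC1a-, ASC1b- and ASC2-like cells at 124, 28.0 and 10.7 CPM in mouse 1, at 31.7, 10.8 and 4.12 in mouse 4 and at 6.96, 11 and 1.66 in mouse 8. In the female ids it stood at 3.82, 122 (34.1 without the cell richest in Acta2) and 0.712 CPM in mouse 2, at 14.4, 26.3 and 2.76 in mouse 3, at 32.7, 250 and 139 in mouse 5 and at 15.8, 114 and 4.25 in mouse 6/7. The 87 ASC1a-like cells of mouse 1 included cells at 3397, 2135 and 4931 CPM of Acta2. In the same order these had Notch3 at 1064, 1287 and 1.46 CPM and Pdgfra at 4.10, 4.29 and 237 CPM. The mouse 1 level without them was not computed. Acta2 of ASC2-like cells was below that of ASC1b-like cells in 7 of 7 mice, whereas the levels overlapped across mice.

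Against ASC1b-like cells, ASC2-like cells had lower Acta2, Tagln and Mylk. In the paired edgeR test, which called 300 of 10624 genes (2.82%, and 1.67% as lower), 3 of the 6 members tested were called, all lower. Mylk fell by 2.34 ± 0.46 on the log2 scale (SE, adjusted p = 0.0114), Acta2 by 2.94 ± 0.70 (adjusted p = 0.0305) and Tagln by 2.72 ± 0.65 (adjusted p = 0.0318). Myh11 differed by -2.49 ± 0.71 (adjusted p = 0.0682), Tpm2 by -0.85 ± 0.33 (adjusted p = 0.186) and Des by -0.30 ± 0.27 (adjusted p = 0.661). Mylk stood at 41.3 CPM in ASC1b-like against 1.82 in ASC2-like cells of mouse 1 and at 16.4 against 3.39, 8.97 against 4.62, 41.8 against 19.3, 46.5 against 7.94, 26.1 against 11.1 and 23.0 against 1.54 CPM in mice 2, 3, 4, 5, 6/7 and 8. The kinase was lower in each animal, and its call held in each alternative tried, including without the cells rich in mural markers (-2.14). Acta2 kept its call without those cells (-2.65) and without mouse 1, but lost it without mouse 3, 6/7 or 8 (adjusted p 0.0607 to 0.0838), and Tagln lost it without mouse 1, 6/7 or 8 (0.0648 to 0.0862) and had too few reads to be tested without mouse 2 or 4 or without the cells rich in mural markers. Myh11 was called without mouse 6/7 (adjusted p = 0.0458) or mouse 8 (0.0451).

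The same was seen when each cell counted equally. Paired by mouse in an exact sign-flip test over 7 mice, whose smallest possible p is 0.0156, the mean over cells of log2(CPM + 1) was lower in ASC2-like than in ASC1b-like cells in 7 of 7 mice for Acta2 (mean difference -0.69), Mylk (-0.96), Tagln (-0.31) and Des (-0.74), each with exact p = 0.0156. Des, which did not differ in the sums, thus differed in how many cells held it. After thinning, a read of Des was found in a median over mice of 21.9% of ASC2-like and 39.4% of ASC1b-like cells (7 of 7 mice, exact p = 0.0156), and a read of Mylk in 13.5% and 27.3% (6 of 7 mice, exact p = 0.0312). These are among 27 comparisons of pairs of subtypes and genes for each quantity, and the p-values are not adjusted for them.

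**Figure D5:**
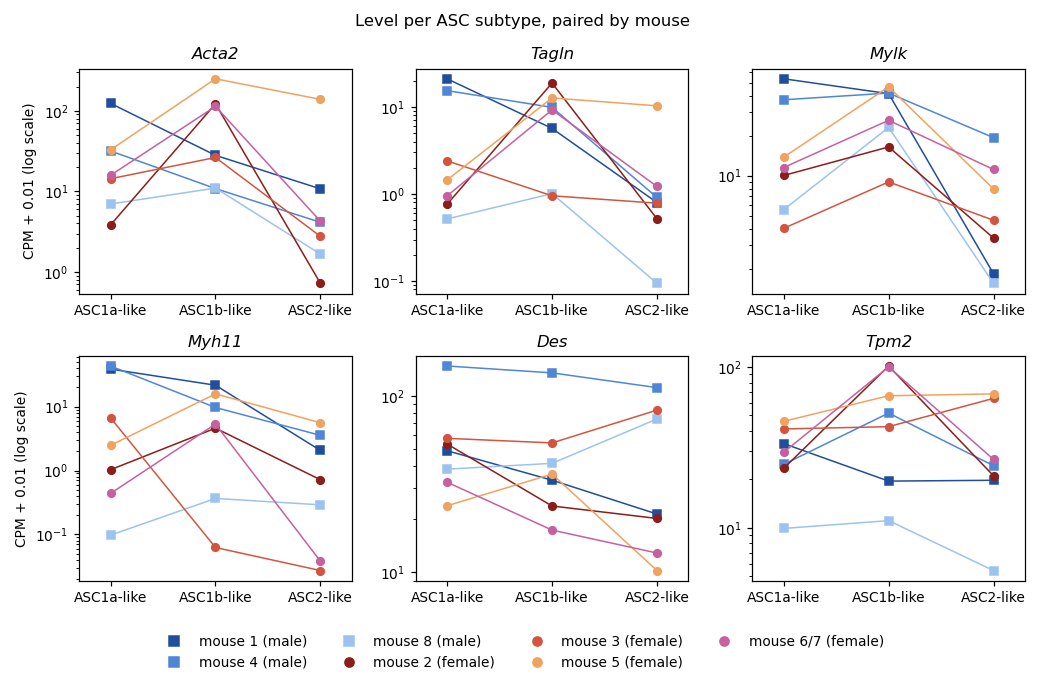
Levels of Acta2, Tagln, Mylk, Myh11, Des and Tpm2 (CPM + 0.01, log axis) in ASC1a-, ASC1b- and ASC2-like cells, 1 line per mouse. For Acta2, Tagln and Mylk each of the 7 lines falls from ASC1b-like to ASC2-like cells.

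ASC2-like against ASC1a-like cells gave weaker results. The test called 338 of 10689 genes (3.16%, and 1.54% as lower) and 2 of 7 members, Acta2 by -2.05 ± 0.54 (adjusted p = 0.0403) and Lmod1 by -3.52 ± 0.86 (adjusted p = 0.032). The Acta2 call was lost without any 1 of mice 1, 2, 3, 4, 6/7 and 8 (adjusted p 0.0852 to 0.113) and its difference shrank to -0.94 (adjusted p = 0.42) without the cells rich in mural markers. Lmod1 had too few reads to be tested without mouse 1 or 4 and was not called without mouse 2 (adjusted p = 0.0763). Between ASC1b-like and ASC1a-like cells 79 of 10763 genes (0.734%) and 0 of 7 members were called, also by DESeq2, with 2 at an unadjusted p below 0.05 and Mylk nearest at 0.99 ± 0.26 (adjusted p = 0.0997). When each cell counted equally, Acta2 and Tpm2 differed. Mean log2(CPM + 1) of Acta2 was higher in ASC1b-like than in ASC1a-like cells in 7 of 7 mice (mean difference 0.47, exact p = 0.0156), as was its share of cells with 10 reads (p = 0.0156 in the same exact test), whereas its share after thinning was higher in 6 of 7 (exact p = 0.125). Tpm2 was found after thinning in a median of 48.3% of ASC1b-like and 27.6% of ASC1a-like cells, higher in 7 of 7 mice (exact p = 0.0156), and was higher in mean log2 in 6 of 7 (0.90, exact p = 0.0312). Tagln was higher in 6 of 7 mice both in mean log2 (0.24, exact p = 0.0469) and after thinning (exact p = 0.0312).

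On the plates of mouse 2 that were sorted apart by DPP4, Mylk, Des and Tpm2 were higher on the DPP4-negative plate. The higher levels of Acta2 and Tagln there rested on 1 cell, while their shares of cells were also higher there. ASC-like cells of plate 709, labelled as DPP4-positive, had Acta2 at 10.6 CPM, Tagln at 2.19, Mylk at 5.38, Des at 24.2 and Tpm2 at 27.1 CPM. Those of plate 875, labelled as DPP4-negative, had Acta2 at 66.4, Tagln at 10, Mylk at 14, Des at 42.1 and Tpm2 at 65.2 CPM. These are 2 plates of 1 mouse, and the column names of plate 709 leave its gate less sure than its label, so no test was made. The single cell named above held 81.0% of the Acta2 reads and 75.5% of the Tagln reads on plate 875. Without it Acta2 stood there at 12.7 CPM and Tagln at 2.48 CPM, near plate 709, and Mylk at 12, Des at 42.3 and Tpm2 at 56.4 CPM. Yet Acta2 was read in 6.79% of the ASC-like cells of plate 875 and 1.32% of those of plate 709. For Tagln the shares were 3.26% and 1.58%. After thinning, a read of Acta2 was found in 13.0% and 5.01%. The Acta2 level of plate 709 also rested on few cells, of which 1 exceeded 1000 CPM.

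In blood EC-like cells the set was low except for Mylk. Over the 5 mice with at least 10 cells of both classes, the paired test called 2776 of 12207 genes (22.7%, and 14% as lower in EC) and 3 of 6 members, all lower than in ASC-like cells. Tpm2 fell by 4.92 ± 0.78 on the log2 scale (adjusted p = 0.00277), Acta2 by 3.47 ± 0.72 (adjusted p = 0.00986) and Des by 4.06 ± 1.19 (adjusted p = 0.0396). Tpm2 stood at 3.56, 1.91, 4.21, 0.371 and 0.0677 CPM in EC of mice 1, 2, 5, 6/7 and 8, against 24.3, 45.6, 58.9, 49.3 and 9.13 CPM in ASC, so the classes did not overlap. Des overlapped, at 42.1 CPM in EC of mouse 8, and lost its call without mouse 1, 5 or 6/7 (adjusted p 0.114 to 0.137). Acta2 differed by -2.59 (adjusted p = 0.0669) once ASC-like cells rich in mural markers were left out. In mice 1, 2 and 6/7 the classes lay mostly on different plates. In mouse 1, for instance, 243 ASC-like cells lay on plate 172 and 174 blood EC-like cells on plate 171. Class and plate cannot be told apart in these mice.

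Mylk did not follow the others in EC. It stood at 23.1, 40.8, 35.6, 49.6 and 5.76 CPM in blood EC-like cells of mice 1, 2, 5, 6/7 and 8 and at 31.3, 9.55, 21.6, 15.7 and 10.2 CPM in ASC-like cells of the same mice, higher in EC in mice 2, 5 and 6/7 and lower in mice 1 and 8. The difference was 0.49 ± 0.54 (adjusted p = 0.561). Mylk was read in 13.9% of blood EC-like cells and in 22.7% of the 22 lymphatic EC-like cells, where it stood at 75.9 CPM. Myh11 (-2.54 ± 1.24, adjusted p = 0.182) and Tagln (-2.45 ± 1.81, adjusted p = 0.377) were not called, and Myocd had 16 reads over all 563 cells.

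Sex could be compared in ASC-like and blood EC-like cells, and no member was called in either. In ASC-like cells edgeR called 264 of 11823 genes (2.23%) between 3 male and 4 female ids and 0 of 7 members, 4 of which had an unadjusted p below 0.05. Lmod1 had the largest difference, at 6.09, 8.54 and 2.25 CPM in mice 1, 4 and 8 against 0.447, 0.00661, 0.411 and 0 CPM in mice 2, 3, 5 and 6/7, a log2 difference of 5.21 ± 1.37 towards males (adjusted p = 0.0855). Des stood at 51.9, 119 and 82.2 CPM on the TMM scale in males and at 25.5, 51.2, 23.1 and 15.4 in females, a difference of 1.53 ± 0.39 and the lowest adjusted p of the members (0.0776). For both genes the sexes did not overlap on this scale, as held for 15.8% of all genes tested, and for Des they did overlap in unscaled CPM, where mouse 3 (66.6) lay above mice 1 (34.4) and 8 (48.7).

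The other members had higher adjusted p-values. Myh11 (2.45 ± 1.05, adjusted p = 0.239) and Mylk (1.5 ± 0.54, adjusted p = 0.182) leaned to males, and Acta2 (-0.42 ± 0.89, adjusted p = 0.827) and Tpm2 (-0.61 ± 0.35, adjusted p = 0.368) to females. Tagln stood at 0.96 ± 0.81 (adjusted p = 0.544). Without mouse 1, whose plate 172 held the many cells with low reads, 230 of 11702 genes and 0 of 6 members were called. The likelihood ratio test called Lmod1 and Des among 554 of 11823 genes, and DESeq2 called both among 598. In blood EC-like cells, with 2 male and 3 female ids, 4 of 8126 genes (0.0492%) and 0 of 3 members (Mylk, Des and Acta2) were called, also by DESeq2 and with 0 at an unadjusted p below 0.05, and Mylk was lower in both males than in all females at a log2 difference of -0.75 ± 0.68 (adjusted p = 0.799), where 27.2% of genes did not overlap. A sex comparison of mural cells was not possible.

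Of the 36 other contractile genes, those tested moved in part with the members. Between VSMC-like and pericyte-like cells of mouse 1, 15 of 21 were past 2.6-fold towards VSMC-like cells and 2 the other way, with a list median of 2.3 against 0.01 over all genes tested. Ppp1r12b, a subunit of the light chain phosphatase, led at 4.40, with the LIM protein gene Csrp1 at 4.11, the regulatory light chain Myl9 at 3.48 and Synpo2 at 3.18, while Tpm4 (-2.04) and the coactivator Mrtfb (-1.60) stood higher in pericyte-like cells. Between mural-like and ASC-like cells 0 of 30 were called by edgeR, where 14 had an unadjusted p below 0.05. DESeq2 called 15 of them there, and 1386 of all 9703 genes. The list median was 1.71 against -0.12. In ASC2-like against ASC1b-like cells 4 of 29 were called, all lower, with a list median of -0.18 against 0.00: both subunits of the nitric oxide receptor guanylate cyclase, Gucy1b1 (-3.69 ± 0.52, adjusted p = 0.00192) and Gucy1a1 (-3.81 ± 0.70, adjusted p = 0.00793), the phosphatase inhibitor Ppp1r14a (-2.45 ± 0.51, adjusted p = 0.0158) and Pdlim3 (-3.79 ± 0.88, adjusted p = 0.0278).

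In the other comparisons fewer or differently directed list genes were called. Gucy1b1, Gucy1a1 and Ppp1r14a were also lower in ASC2-like than in ASC1a-like cells (-3.45, -2.98 and -2.15, 3 of 29 called), and Pdlim3 was higher in ASC1b-like than in ASC1a-like cells (3.19, 1 of 29). These comparisons share their sums. In blood EC-like against ASC-like cells 6 of 30 were higher, among them Synm (2.33), Actn1 (2.31) and Mrtfb (1.87), and 11 lower, led by Prkg1 (-8.40), Gata6 (-7.66), Gucy1a1 (-4.91) and Pdlim3 (-4.55), with a list median of 0.17 against -0.20. Between the sexes, Mrtfa was higher in male ASC-like cells (1.55, adjusted p = 0.0411) and Gucy1b1 lower (-2.24, adjusted p = 0.0326), 2 of 30 by edgeR, and in blood EC-like cells 0 of 22 were called by edgeR, where 5 had an unadjusted p below 0.05, and 1 by DESeq2.

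The genes most like the set in pattern were sought over 17 sums of mouse by class among 12844 genes, by Pearson correlation with the mean of the members' scaled levels. Gm48529 came first at 0.96, but it overlaps Tagln on the other strand. Pdgfa, a growth factor that binds the receptor Pdgfra, followed at 0.91, then Ppp1r12b at 0.90, Gpc1 and Synpo2 at 0.89 and 0.88, Parm1 at 0.88, Dtna at 0.88, Hspb2 and Lrrc3 at 0.87 and Sh3bgr at 0.85. The 17 sums include a single VSMC-like sum, which leads the pattern, so a gene high in that sum alone ranks high.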

How the data were processed

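Single-cell Smart-seq2 libraries of 3261 cells were analysed from the count table that the authors deposited, in which each value is a raw whole-number count for a gene in a cell. Per the study's methods the authors made FASTQ files with bcl2fastq, aligned to mm10 with ERCC spike-in sequences with STAR, quantified genes with Salmon and imported the counts with tximport; versions are not given in the sources used here. They had removed cells by read number, genes, mitochondrial and ERCC share and signs of mixed identity, so reads from neighbouring wells or free RNA that remained below those limits are still in the counts. The 72 ERCC rows were left out.

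The members, lists and tests were chosen with earlier results of these data known. Cells were clustered in Seurat 5.3.0 (3000 variable genes, 14 components, resolution 1.1, 18 clusters) without the 9 genes and the 36 list genes, and clusters were named from markers. No doublet caller was run, since the authors had removed mixed cells. Subtypes were scored within each mouse. CPM are reads of a gene summed over the cells of a class and scaled to a common total of gene reads, and RPKM divide these by the kilobases of exon in GENCODE vM21, which 23461 rows matched. Shares carry exact Clopper-Pearson intervals at 95%, and a count of 0 allows up to 3 counts.

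Reads were summed per mouse and class (at least 10 cells) and tested with the quasi-likelihood test of edgeR 4.0.16 in R 4.3.3, with TMM factors and genes above 600 reads in at least 2 sums. Benjamini-Hochberg adjustment ran over all genes tested, and calls needed an adjusted p under 0.05 with a fold change over 2.6. All tests are two-sided, and the script was tested on simulated data. Comparisons of classes had the mouse as a block, because both sums came from the same animals: deviations of the same mouse correlated at 0.361 to 0.755 between subtypes and 0.064 to 0.348 between EC and ASC. Members were named in every comparison, list genes if called (up to 4 per direction by fold change) and 10 genes by correlation; 1 gene that this rule names is not reported here. The alternatives were the likelihood ratio test, DESeq2 1.42.0, other scalings, filters and cell classes, and leaving out each mouse. Values without plate 172, on plate 843 alone and without the cell richest in Acta2 were added after seeing the data. Plates are nested in mice, so plate and mouse cannot be told apart in most comparisons. Where the classes of a mouse lay on different plates, the block does not remove plate from their difference.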

Additional observations from a re-analysis of the deposited data

Results flagged for a closer look

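In 9 of 36 groups of 4 female ids screened, 1 mouse lay far from the other 3. Chance gives about 1 in 20 groups only for normal values in separate groups. The groups here overlap, since ASC-like cells include the subtypes, and several values rest on few reads. The screen is therefore no test of an excess over chance. Mouse 5 was the outlying mouse in 7 of the 9 groups. In its ASC2-like cells Acta2 stood at 139 CPM (next mouse 4.25), Tagln at 10.3 (next 1.21), Myh11 at 5.59 (next 0.708) and Cnn1 at 0.646 CPM (next 0.0344). Myh11 stood at 7.40 CPM in all ASC-like cells of mouse 5 (next 2.45), Cnn1 at 0.379 in its ASC1a-like cells (next 0.0286) and Myocd at 0.199 in its ASC1b-like cells (next 0.0339). Mouse 5 had the fewest ASC-like cells, 104, and 13 of them exceeded 100 CPM of Acta2. The other 2 were mouse 3, with Des at 83.2 CPM in ASC2-like cells (next 20.2) and Lmod1 at 0.0172 CPM there, which is 1 read against 0 in the other 3 and is no more than counting error. The Cnn1 values of mouse 5 rest on 14 reads in ASC2-like and 10 in ASC1a-like cells, and its Myocd value on 4 reads.

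The 188 cells of no class, which entered no comparison, held 10122 reads of the 9 genes.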

How the results depend on the processing

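The number of members called stayed within 1.5 times its main value in 86 of 108 alternatives. For sex in ASC-like cells it moved from 0 to 2 (likelihood ratio test, DESeq2) or 1 (library totals alone, classes from the markers of each cell), with 0 to 1 when 1 mouse was left out. For mural-like against ASC-like cells it moved from 0 to 5 (likelihood ratio test), 6 (DESeq2) or 1 (library totals alone). For VSMC-like against pericyte-like cells it moved from 6 to 3 without cells with endothelial markers, where fewer members had enough reads. For ASC2-like against ASC1a-like cells it fell from 2 to 0 with a filter of 10 counts, with no filter or without ASC-like cells rich in mural markers, and was 0 to 2 when 1 mouse was left out. For ASC2-like against ASC1b-like cells it fell from 3 to 1 with either filter. Without the replicate block, the pairing by mouse, 0 members were called for ASC2-like against ASC1a-like and 1, Mylk, against ASC1b-like cells. Where not said otherwise, the cause was not tested.

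Of 689 refitted log2 differences of members 596 kept direction and side of the threshold, 38 lost their call, 36 gained one and 19 changed sign; the causes were not tested. Acta2 between the sexes in ASC-like cells (-0.42) ran from -2.03 to 0.72 when 1 mouse was left out, with values above 0 without mouse 5 or 8, and was 1.09 with classes from markers, and Tagln was -0.83 without cells rich in mural markers. In ASC1b-like against ASC1a-like cells Lmod1 ran from -0.46 to 0.74 when 1 mouse was left out, with values below 0 without mouse 2 or 5, and was -1.25 without the block, -0.055 as mean log2 and -0.32 points as thinned share. In the same comparison Myh11 ran from -0.037 (without mouse 6/7) to 1.34 and was -0.57 without the block, and Des was 0.026 as mean log2 and 1.58 points as thinned share. In ASC2-like against ASC1a-like cells Tpm2 ran from -0.21 to 0.054 when 1 mouse was left out, with values above 0 without mouse 1 or 8, and was 0.041 without the block, 0.20 without cells rich in mural markers, 0.20 as mean log2 and 2.14 points as thinned share. Cnn1 and Lmod1 in mouse 1 were lower in pericyte-like than ASC-like cells in summed CPM but higher by 0.42 and 0.38 as mean log2.

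Counts of all genes called ran from 92 to 598 (264 in the main test) for sex in ASC-like cells and from 0 to 685 (4) in blood EC-like cells, where 685 was without mouse 1. They ran from 0 to 1386 (0) for mural-like cells, 102 to 11333 (199) for VSMC-like against pericyte-like cells, 8 to 197 (79), 169 to 479 (338) and 95 to 453 (300) for the subtypes, each lowest count there being without the block. Library totals alone shifted the median of all genes to -0.60 for sex in ASC-like and -0.80 in blood EC-like cells and turned the split in ASC-like cells from 183 higher and 81 lower in males to 87 and 223. Settings that left 1 mouse in the mural comparison gave no test. Depth limits Myocd, Cnn1 and Lmod1, which often had too few reads for a test.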
